A study of Mus musculus with 18 samples.

Results

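The genes described here are Gpnmb, Trem2, Lgals3, Fabp5, Apoe, Cd9, Cd63, Msr1 and Cd68, a set of 9 genes known from macrophages that take up and store lipid. They were chosen by name, after Gpnmb and Lgals3 had been seen among the largest rises at 72 h in these same mice, so their levels at 72 h are given as a description and not tested. The 9 genes were among 24419 symbols in the table, and all 9 were among the 13333 genes that reached 1 FPKM in at least 1 mouse and were tested.

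TREM2 is a surface receptor of macrophages and microglia that binds lipids, lipoproteins and debris of dead cells and signals through the adaptor encoded by Tyrobp. Macrophages that have taken up lipid, in atheroma, obese fat tissue and injured heart, are known to carry TREM2 and GPNMB together with a shared set of genes for lipid binding, lysosomes and cell adhesion. After a coronary artery is closed, neutrophils enter the heart first, monocytes follow, and monocyte-derived macrophages then clear the dead muscle.

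Poly(A) RNA was sequenced from the hearts of 18 mice in 6 groups of 3, all of the C57BL/6 strain and 8 weeks old, and all male by the study's methods. The 5 groups with acute myocardial infarction (AMI) had the proximal left anterior descending coronary artery tied under pentobarbital and were taken 10 min, 1 h, 6 h, 24 h or 72 h later, and the tissue was infarcted left ventricle. The ligation was not described as released. The sixth group is named control in the labels and sham in the study's text, and every mouse was in 1 group only. Levels are FPKM, fragments scaled to transcript length and to the number of mapped reads, which allows a comparison between genes.

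The table summed to between 542418 and 600467 FPKM per mouse, and read depth relative to the first control mouse, estimated from the steps of the lowest values, ranged from 0.818 to 1.31, with the 72 h mice at 1.24 to 1.31. Cardiomyocyte markers identified the tissue as heart, since the 7 markers summed to 54211 to 57676 FPKM in control mice and to 19972 to 24817 FPKM at 72 h. The 10 macrophage markers summed to 244 to 285 FPKM in control mice, 236 to 360 at 6 h, 412 to 594 at 24 h and 2562 to 3225 at 72 h. The 6 neutrophil markers differed widely within groups, with 1001, 117 and 377 FPKM in 6 h mice 1, 2 and 3 and 216, 45.2 and 996 FPKM in 24 h mice 1, 2 and 3, against 2.56 to 5.28 FPKM in control mice. In whole tissue, fewer cells of a type and less RNA per cell cannot be told apart, and this holds for every level below.

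No member was called before 6 h. At 6 h, 3 were called higher, beside 11.6% of all genes tested. At 24 h 7 were called higher and 1 lower, beside 26.2% and 11.4% of all genes. Every one of the 9 lay above control in all 3 mice at 72 h, as did 55.1% of all genes. Together they made up 0.0640% ± 0.00328 (SD, n = 3) of all FPKM in control mice, 0.157% ± 0.0366 at 24 h and 0.757% ± 0.0833 at 72 h. Lgals3, Msr1 and Cd63 were called higher at 6 h and 24 h, Gpnmb, Trem2, Cd68 and Fabp5 at 24 h, and Apoe was called lower at 24 h. Cd68 was above control in all mice at 6 h without being called (limma adjusted p = 0.0583), and the differences between the genes were not tested. Gene positions are those of GENCODE M21 on mm10, the build of the deposited values.

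**Figure D1:**
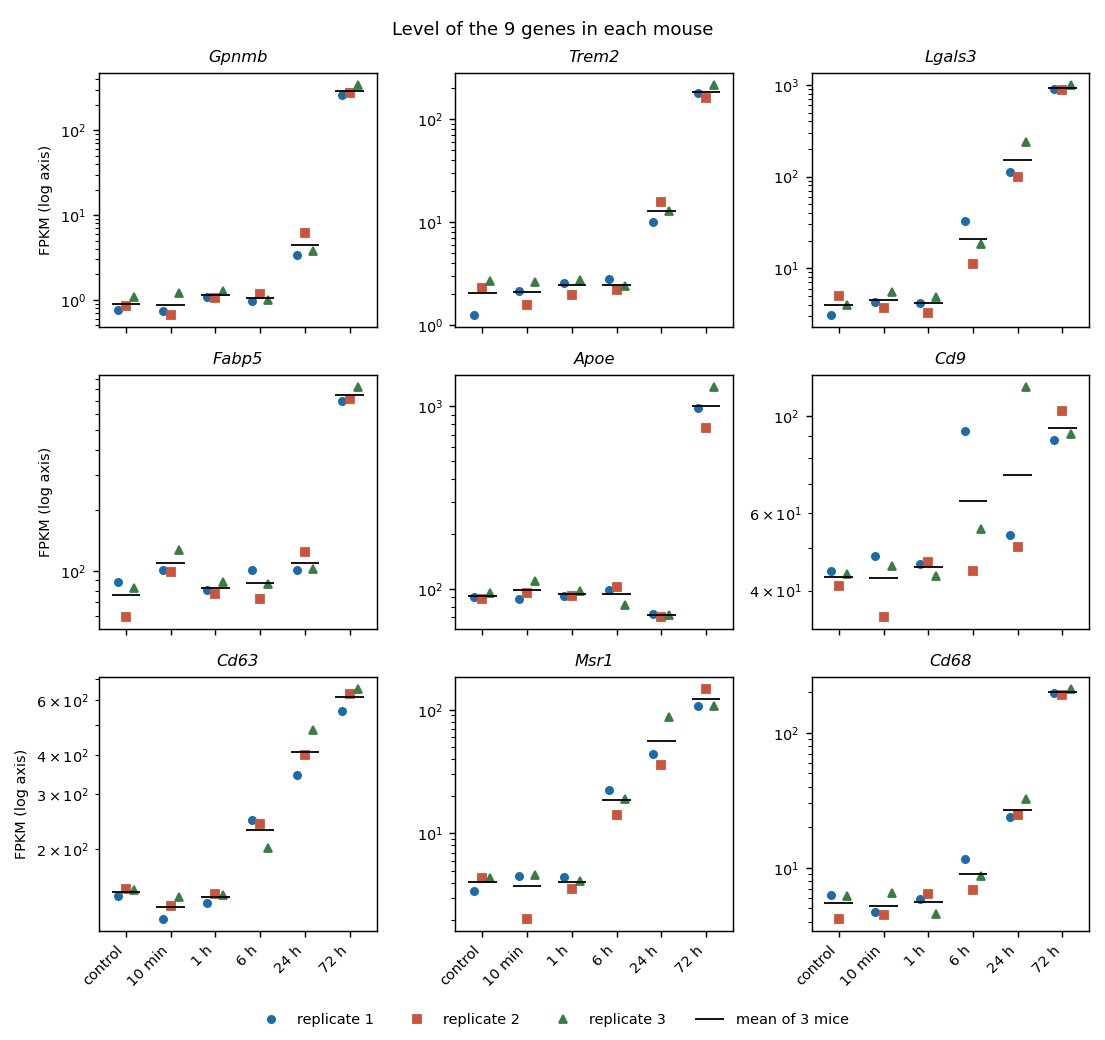
FPKM (log axis, a separate scale for each gene) of the 9 genes in each of 18 mice, in control mice and at 5 times after ligation, with a symbol for each mouse and a bar at the mean of 3. Lgals3, Cd63, Msr1 and Cd68 were above all control mice from 6 h on, and Gpnmb, Trem2, Fabp5 and Cd9 from 24 h on (Fabp5 also at 10 min). Of all genes tested, 18.6% lay above control in this way at 6 h and 39.3% at 24 h. Apoe fell to between 70.2 and 73.3 FPKM at 24 h before the 72 h mice reached 763 to 1281.

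At 10 min and 1 h, none of the 9 genes was called, where called means a limma adjusted p under 0.05 after Benjamini-Hochberg adjustment over all genes tested. The background was low as well, with 0.248% of genes called higher and 0.0978% called lower at 10 min, and 0.669% and 0.0526% at 1 h. At 10 min the smallest adjusted p of the 9 in limma was 0.207, and 2 genes had an unadjusted p under 0.05, Fabp5 and Cd63. Fabp5, the epidermal fatty acid-binding protein, had 101, 99.5 and 127 FPKM at 10 min and 88.3, 59.2 and 82.3 FPKM in control mice. Cd63 had 119, 131 and 140 FPKM at 10 min and 141, 149 and 147 FPKM in control mice. The groups did not overlap for these 2 genes, as was the case for 12.2% of all genes tested that were above control and 8.15% that were below. At 1 h the 9 log2 fold changes lay between -0.06 and 0.19, no unadjusted p was under 0.05, and the smallest adjusted p in limma was 0.464.

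Trem2 and Gpnmb, the surface proteins that name this macrophage state, differed from control at 24 h and not detectably before. Trem2 (chr17:48346401-48354147, plus strand) encodes the lipid-sensing receptor. It had 1.25, 2.32 and 2.68 FPKM in control mice 1 to 3, 2.80, 2.18 and 2.43 at 6 h, then 10.1, 15.6 and 12.8 at 24 h. At 72 h it had 178, 162 and 216 FPKM. The 6 h mice overlapped the control mice, and all 24 h mice lay far above both. The log2 fold change on the log2(FPKM + 1) scale, which understates changes of low genes, was 0.20 (SE 0.19, limma adjusted p = 0.445) at 6 h and 2.18 (SE 0.22, limma adjusted p = 0.00235) at 24 h. At 72 h its mean was 186 ± 27.6 FPKM (SD, n = 3), 89.1 times the control mean.

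Gpnmb (chr6:49036546-49070929, plus strand) encodes a membrane glycoprotein of endosomes and lysosomes that is also made by melanocytes and bone-resorbing cells. It was the lowest of the 9 in control mice, with 0.765, 0.856 and 1.07 FPKM, and had 0.981, 1.178 and 0.994 FPKM at 6 h. It had 3.38, 6.13 and 3.74 FPKM at 24 h and 262, 276 and 345 FPKM at 72 h. All 24 h mice lay above all control mice, and all 72 h mice were far above those of 24 h. The log2 fold change was 0.11 (SE 0.097, limma adjusted p = 0.395) at 6 h and 1.48 (SE 0.19, limma adjusted p = 0.00439) at 24 h. The mean at 72 h was 328 times that of the control mice, a ratio that rests on control values near 1 FPKM. From 24 h to 72 h Gpnmb had the largest log2 fold change of the 13330 genes compared, 5.79. Gpnmb was picked for its rise at 72 h, so this rank is a description only. The melanocyte markers Tyr and Tyrp1 were at 0 in all 3 mice of each group, save Tyrp1 at 10 min, and the 4 markers of that list summed to at most 2.51 FPKM in any mouse.

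Promoter sequence of these genes is shown because Trem2 and Cd68 were the pair of the 9 with the most similar profile over the mice, with Gpnmb close to Trem2. The profile includes the 72 h mice, whose values chose the set. Genes outside the 9 were nearer to Trem2, Cd68 and Gpnmb than these were to each other. RefSeq promoters on GRCm38.p6, 250 bases before to 50 after the start, were found for 7 of the 9 genes, all but Fabp5 and Msr1. Of 4 motifs searched on both strands, the AP-1 motif TGANTCA was found in Cd68, Trem2 and Gpnmb and in 7.81% of 32851 mouse promoters of the same length. The C/EBP motif TTGCNNAA was found in Cd68 and Trem2 and in 10.8% of promoters, without overlap with the AP-1 matches. Neither the E-box CACGTG, in 7.15% of promoters, nor the PU.1 motif GAGGAAGT, in 3.20%, was found in any of the 7, which says only that these letters are absent from the windows. The upstream 250 bases of Trem2 (chr17:48346151-48346400, plus strand) and Cd68 (chr11:69666171-69666420, minus strand) and 30 bases around the Gpnmb match (chr6:49036515-49036544, plus strand), read 5′ to 3′ along each gene, are printed with AP-1 and C/EBP matches in capitals.
Trem2: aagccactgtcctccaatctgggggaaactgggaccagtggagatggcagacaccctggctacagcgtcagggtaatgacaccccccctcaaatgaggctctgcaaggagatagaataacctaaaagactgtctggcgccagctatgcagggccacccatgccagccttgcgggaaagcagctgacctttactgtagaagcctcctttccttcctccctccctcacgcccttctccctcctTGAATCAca
Cd68: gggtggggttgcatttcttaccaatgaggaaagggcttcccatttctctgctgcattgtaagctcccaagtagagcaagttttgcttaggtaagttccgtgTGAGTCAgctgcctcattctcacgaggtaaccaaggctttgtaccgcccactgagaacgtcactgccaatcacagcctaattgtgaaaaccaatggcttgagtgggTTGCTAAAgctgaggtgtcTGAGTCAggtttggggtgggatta
Gpnmb: ccaggggcaagTGACTCAtgagcacgagtt
The Trem2 AP-1 match lay 9 to 3 bases before the RefSeq start and those of Cd68 lay 149 to 143 and 24 to 18 bases before it. The Gpnmb match lay 9 to 15 bases after the RefSeq start, upstream of the GENCODE start of that gene. The Trem2 C/EBP match lay 23 to 30 bases after the start, outside the stretch shown. A match in these letters is a description of the sequence and no evidence of binding.

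Lgals3 and Msr1, whose products bind sugars and modified lipoproteins at the cell surface, were the members with the largest differences at 6 h. Lgals3 (chr14:47367751-47386160, plus strand) encodes galectin-3, a lectin that is secreted and that also gathers at damaged lysosomes. It had 3.07, 4.99 and 3.94 FPKM in control mice, 32.6, 11.0 and 18.5 at 6 h, then 112, 100 and 241 at 24 h. Its 72 h values were 901, 875 and 1005 FPKM. Each time from control to 6 h, 24 h and 72 h was separated from the one before without overlap, as were 18.6%, 36.2% and 37.3% of all genes tested that were higher, although mouse 1 at 6 h and mouse 3 at 24 h were far above the others of their group. The log2 fold change was 2.009 (SE 0.35, limma adjusted p = 0.00709) at 6 h and 4.83 (SE 0.33, limma adjusted p = 0.000926) at 24 h, the eleventh largest of 13327 genes at 24 h. At 72 h the mean of 927 FPKM was 232 times the control mean.

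Msr1 (chr8:39581685-39642673, minus strand) encodes the class A scavenger receptor, which takes up oxidised and acetylated lipoproteins. It had 3.45, 4.37 and 4.36 FPKM in control mice, 22.4, 14.1 and 19.1 at 6 h, then 43.7, 35.8 and 87.7 at 24 h. At 72 h it had 107, 148 and 108 FPKM. From control to 6 h, 24 h and 72 h, all mice of each group lay above all mice of the one before. The same held at these steps for 18.6%, 36.2% and 37.3% of all genes tested. Against control the log2 fold change was 1.93 (SE 0.17, limma adjusted p = 0.000747) at 6 h, the smallest adjusted p of the 9 genes at that time, and 3.38 (SE 0.31, limma adjusted p = 0.0018) at 24 h. At 24 h Msr1 had reached 73.9% of its 72 h log2 fold change, the largest share of the 9.

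The tetraspanins Cd63 and Cd9 took different courses. Cd63 (chr10:128900989-128912822, plus strand) encodes a tetraspanin of late endosomes, lysosomes and exosomes and was the most abundant of the 9 in control mice. It had 141, 149 and 147 FPKM in control mice, 248, 240 and 201 at 6 h, then 346, 401 and 483 at 24 h. Its 72 h values were 554, 628 and 654 FPKM. From control to 6 h, 24 h and 72 h the groups did not overlap, as for 18.6%, 36.2% and 37.3% of all genes tested that were higher. The differences were small beside those of Lgals3. For Cd63 the log2 fold change was 0.65 (SE 0.092, limma adjusted p = 0.00364) at 6 h and 1.47 (SE 0.13, limma adjusted p = 0.00159) at 24 h. GENCODE lists a processed pseudogene of Cd63 and one of Fabp5 that are not in the table, so reads shared with such copies make the levels of both genes uncertain.

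Cd9 (chr6:125460266-125494791, minus strand) encodes a tetraspanin of the plasma membrane found on many cell types. It had 44.4, 41.0 and 43.6 FPKM in control mice, 92.3, 44.3 and 55.3 at 6 h, then 53.7, 50.2 and 117 at 24 h. At 72 h it had 88.1, 103 and 91.2 FPKM. At 6 h and 24 h the spread came from a single high mouse in each group, mouse 1 and mouse 3. Cd9 was called at neither time, with a log2 fold change of 0.49 (SE 0.24, limma adjusted p = 0.153) at 6 h and 0.65 (SE 0.30, limma adjusted p = 0.123) at 24 h. Without 6 h mouse 2 it was called at 6 h (limma adjusted p = 0.042), and without 24 h mouse 3 at 24 h (limma adjusted p = 0.0311), when the log2 fold change was 0.27. Exons of Cd9 overlap an antisense gene, Gm26728, and the library was not described as keeping strand, so reads of the 2 cannot be told apart.

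Fabp5 and Apoe, which carry fatty acids inside cells and cholesterol between them, were at 59.2 FPKM or more in every control mouse. Fabp5 (chr3:10012548-10016607, plus strand) had 102, 72.8 and 86.5 FPKM at 6 h, then 101, 125 and 103 at 24 h. Its 72 h values were 695, 714 and 820 FPKM. The 6 h mice overlapped the control mice, and the 24 h mice lay just above the highest control mouse. The log2 fold change at 24 h was 0.53 (SE 0.17, limma adjusted p = 0.0434). That call was lost under 9 of 15 alternatives, with an adjusted p of 0.105 without control mouse 2, 0.0636 without mouse 1 and 0.0824 without mouse 3 of the controls, and 0.0543 and 0.11 without 24 h mouse 1 or 2 in limma.

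Apoe (chr7:19696109-19699188, minus strand) encodes apolipoprotein E, a carrier of cholesterol and a ligand of TREM2. It had 91.0, 88.1 and 95.7 FPKM in control mice, 98.9, 103 and 81.5 at 6 h, then 73.3, 70.2 and 71.9 at 24 h. At 72 h it had 984, 763 and 1281 FPKM. At 24 h all 3 mice lay below every control mouse with little spread, and at 72 h all 3 lay far above. Apoe had a log2 fold change of 0.04 (SE 0.10, limma adjusted p = 0.787) at 6 h and -0.35 (SE 0.073, limma adjusted p = 0.0139) at 24 h, so that Apoe fell while 7 of the other members rose. The call at 24 h was lost without any 1 of the control mice (limma adjusted p = 0.0532 to 0.0688), with a log2 fold change of -0.31 to -0.37. Leaving out those mice also left 366 to 468 of all genes called lower in place of 1516.

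Cd68 (chr11:69664213-69666153, minus strand) encodes a heavily glycosylated protein of macrophage lysosomes and is a common macrophage marker. It had 6.24, 4.18 and 6.19 FPKM in control mice, 11.6, 6.91 and 8.67 at 6 h, then 23.8, 24.7 and 32.5 at 24 h. Its 72 h values were 196, 189 and 213 FPKM. The 6 h mice lay above the control mice without overlap. Its log2 fold change was 0.61 (SE 0.20, limma adjusted p = 0.0583) at 6 h and 2.103 (SE 0.18, limma adjusted p = 0.00147) at 24 h. At 6 h it was called under 5 of 15 alternatives, among them without 6 h mouse 2 (limma adjusted p = 0.0319).

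**Figure D2:**
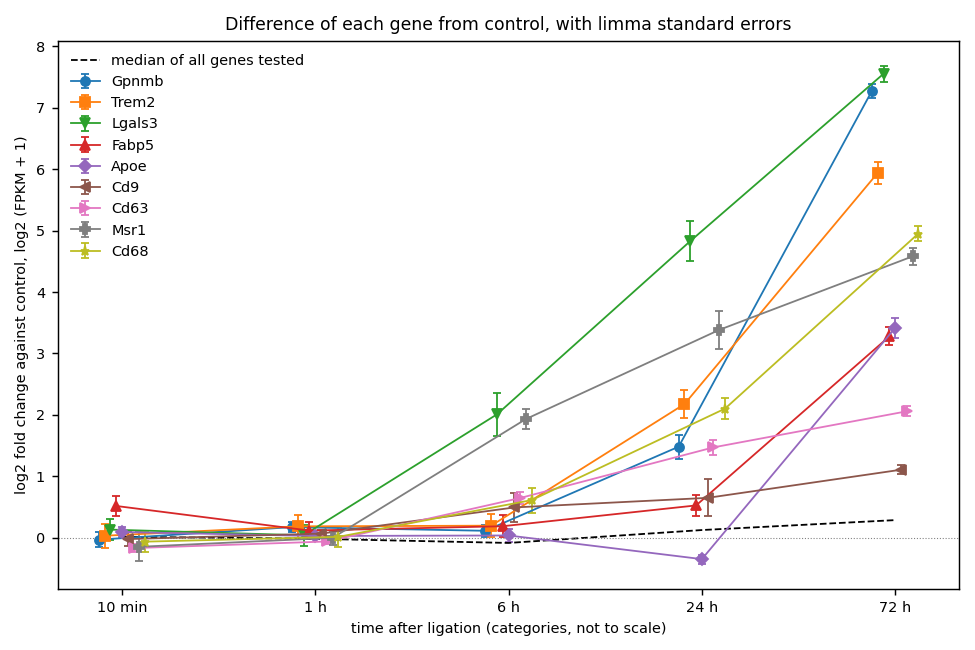
Log2 fold change against control on the log2(FPKM + 1) scale, with limma standard errors (3 against 3 mice), for each of the 9 genes at 10 min, 1 h, 6 h, 24 h and 72 h, and the median of all genes tested as a dashed line. The genes fan out from 6 h, with Lgals3 and Msr1 highest at 6 h and 24 h, Gpnmb and Lgals3 highest at 72 h, and Apoe below 0 at 24 h.

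Counted over the set, 3 of 9 genes were called higher and 0 lower at 6 h, where 11.6% of all genes tested were called higher and 16.8% lower. At 24 h, 7 of 9 were called higher and 1 lower, against 26.2% and 11.4% of all genes, and all 3 mice lay above all control mice for 8 members and below them for 1, as for 39.3% and 18.9% of all genes. The median log2 fold change of the 9 was 0.49 at 6 h and 1.48 at 24 h, against -0.08 and 0.13 over all genes. With median-of-ratios scaling, which moves the counts of all genes from 1543 higher and 2233 lower to 1922 and 1586 at 6 h and from 3496 and 1516 to 2460 and 2426 at 24 h, 4 members were called higher at 6 h, and 6 higher and 1 lower at 24 h. At 24 h 6 of the 8 calls, and at 6 h all 3, were kept under every one of 15 alternatives.

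Between 6 h and 24 h, compared directly on those 6 mice, 6 of 9 genes were called higher and 0 lower, against 12.5% and 1.94% of all genes tested. Lgals3 had the largest difference, a log2 fold change of 2.82, followed by Trem2 with 1.98, Cd68 with 1.49, Msr1 with 1.45, Gpnmb with 1.37 and Cd63 with 0.82, with limma adjusted p from 0.00884 for Trem2 to 0.0328 for Msr1. Fabp5 (0.34, limma adjusted p = 0.157), Cd9 (0.16, limma adjusted p = 0.783) and Apoe (-0.38, limma adjusted p = 0.069) were not called. Without 6 h mouse 2 or without 6 h mouse 3 no member was called, and over all genes 1 was called higher in place of 1664, while the log2 fold change of Trem2 was 1.92 and 1.97 and that of Gpnmb 1.41 and 1.35. Without 6 h mouse 1 the members called were 4, with 191 of all genes called higher, and without 24 h mouse 2 they were 2, with 27 of all genes. No log2 fold change of the 6 changed sign. With median-of-ratios scaling 4 members were called higher and 1 lower, with 403 of all genes higher and 368 lower in place of 1664 and 258.

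At 72 h all 9 genes lay above control in all 3 mice, as did 55.1% of all genes tested, with 53.1% of genes called higher, and since 72 h values chose the set nothing is read from that count. Quantile normalization turned the counts of all genes at 72 h from 7081 higher and 3226 lower to 4278 higher and 5794 lower, and median-of-ratios scaling gave 5208 and 4792. The log2 fold changes were 7.55 for Lgals3, 7.28 for Gpnmb, 5.94 for Trem2, 4.95 for Cd68, 4.58 for Msr1, 3.42 for Apoe, 3.28 for Fabp5, 2.06 for Cd63 and 1.11 for Cd9, around a median of 0.29 over all genes. Lgals3, Gpnmb and Trem2 ranked 2, 3 and 7 among the 13329 genes compared, and nothing is read from these ranks either, for the same reason. In level the order was Apoe with a mean of 1009 FPKM, Lgals3 with 927, Fabp5 with 743, Cd63 with 612, Gpnmb with 294, Cd68 with 199, Trem2 with 186, Msr1 with 121 and Cd9 with 94.0. The mice of Apoe and Lgals3 overlapped in that order, as did those of Cd68 and Trem2, and the other neighbours were separate. In control mice the order was led by Cd63, Apoe, Fabp5 and Cd9, and Gpnmb stood last, at rank 11591 of 13333 genes, against rank 306 at 72 h.

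The share of the 72 h log2 fold change already present at 24 h was 73.9% for Msr1, 71.5% for Cd63, 63.9% for Lgals3 and 58.7% for Cd9, then 42.5% for Cd68, 36.6% for Trem2, 20.4% for Gpnmb and 16.1% for Fabp5, and -10.1% for Apoe. Both 24 h and 72 h values are set against the same control mice here, and no test was made of the shares. That of Cd9 rested on 24 h mouse 3, without which it was 24.0%.

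Mice within a group also ranked differently for different members. At 6 h mouse 1 was highest for 7 of 9 genes, all but Gpnmb and Apoe, and it was the mouse with the highest neutrophil marker sum, 1001 FPKM, and the highest monocyte marker sum, 53.5 FPKM against 17.5 and 26.3. At 24 h mouse 3 was highest for Lgals3, Cd9, Cd63, Msr1 and Cd68, with a neutrophil sum of 996 FPKM and a monocyte sum of 225 FPKM against 81.5 and 53.6. Gpnmb, Trem2 and Fabp5 were instead highest in 24 h mouse 2, the mouse with the lowest sum of both lists. All 6 neutrophil markers and all 5 monocyte markers were called higher at 6 h, beside 11.6% of all genes tested. At 24 h 5 of 6 and 5 of 5 were called higher, beside 26.2% of all genes. None of these markers was at 0 in a whole group. Their part in the levels of the 9 genes was not tested. Without 6 h mouse 1 the number of members called higher at 6 h stayed at 3. Over all genes, 763 to 1786 were called higher at 6 h as single mice were left out, in place of 1543. Without 24 h mouse 3 the members called higher at 24 h were 8, with 3411 of all genes in place of 3496.

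Levels relative to Cd68 in the same mouse give the members' balance against a macrophage gene. On the log2(FPKM + 1) scale, Lgals3 relative to Cd68 was -0.83, 0.21 and -0.54 in control mice, 1.41, 0.60 and 1.01 at 6 h, then 2.18, 1.98 and 2.85 at 24 h. By 72 h it was 2.20, 2.20 and 2.24. Msr1 relative to Cd68 was -0.70, 0.05 and -0.42 in control mice, 0.89, 0.93 and 1.06 at 6 h, then 0.85, 0.52 and 1.40 at 24 h. By 72 h it was -0.87, -0.35 and -0.97. Both were above control in all mice at 6 h and 24 h, as were 2.99% and 0.48% of all genes relative to Cd68, and at 72 h Msr1 again overlapped control while Lgals3 stayed above. Gpnmb relative to Cd68 was -2.04, -1.48 and -1.80 in control mice, -2.50, -1.85 and -2.82 at 24 h and 0.42, 0.54 and 0.70 at 72 h. The added 1 weighs on Gpnmb, whose control values were near 1 FPKM. In mean FPKM without it, Gpnmb at 24 h was 4.93 times control and Cd68 4.88 times, so no lag of Gpnmb behind Cd68 is read from the 24 h values.

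Trem2 overlapped its control range of -1.68 to -0.64 at 24 h, with -1.16, -0.63 and -1.29, and had -0.14, -0.22 and 0.02 at 72 h. Apoe, Fabp5, Cd9 and Cd63 were below control relative to Cd68 in all mice at both 24 h and 72 h, as were 96.6% and 99.6% of all genes. Adgre1, Csf1r and Ptprc, the gene of the leukocyte antigen CD45, were also set in place of Cd68. With each, 1 member was below control at 24 h and 2 were below at 72 h, while 5, 5 and 4 members were above at 24 h. Of all genes, 71.0%, 68.8% and 89.3% were below control at 24 h in that order, and 4.94%, 5.9% and 1.96% were above. At 72 h 98.0%, 94.9% and 94.7% of all genes were below. The smallest p that an exact permutation test of 3 against 3 mice can give is 0.1, and that p, 0.178 after adjustment over 16 tests, was reached by 3 genes at 6 h and 6 at 24 h. The result depends on the macrophage gene set beside the members: relative to Adgre1 or Csf1r, which encode the F4/80 antigen and the receptor of macrophage colony-stimulating factor, all 8 were above control at 6 h, against 2 above and 1 below relative to Cd68. Of all genes, 30.5% were above control relative to Adgre1 and 52.3% relative to Csf1r at 6 h, and 68.7% were below it relative to Cd68. Relative to Ptprc, 2 members were above control and 1 below it at 6 h, beside 2.8% and 70.9% of all genes. Csf1r itself was called lower at 6 h (log2 fold change -0.46, limma adjusted p = 0.0247). Of the 10 macrophage markers, 3 were called higher and 3 lower at 6 h, beside 11.6% and 16.8% of all genes. Of 5 markers of resident macrophages, 2 were called higher and 2 lower. At 72 h, 3 members were above control and 4 below it relative to Cd68, beside 0.12% and 99.6% of all genes, which is a description.

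**Figure D3:**
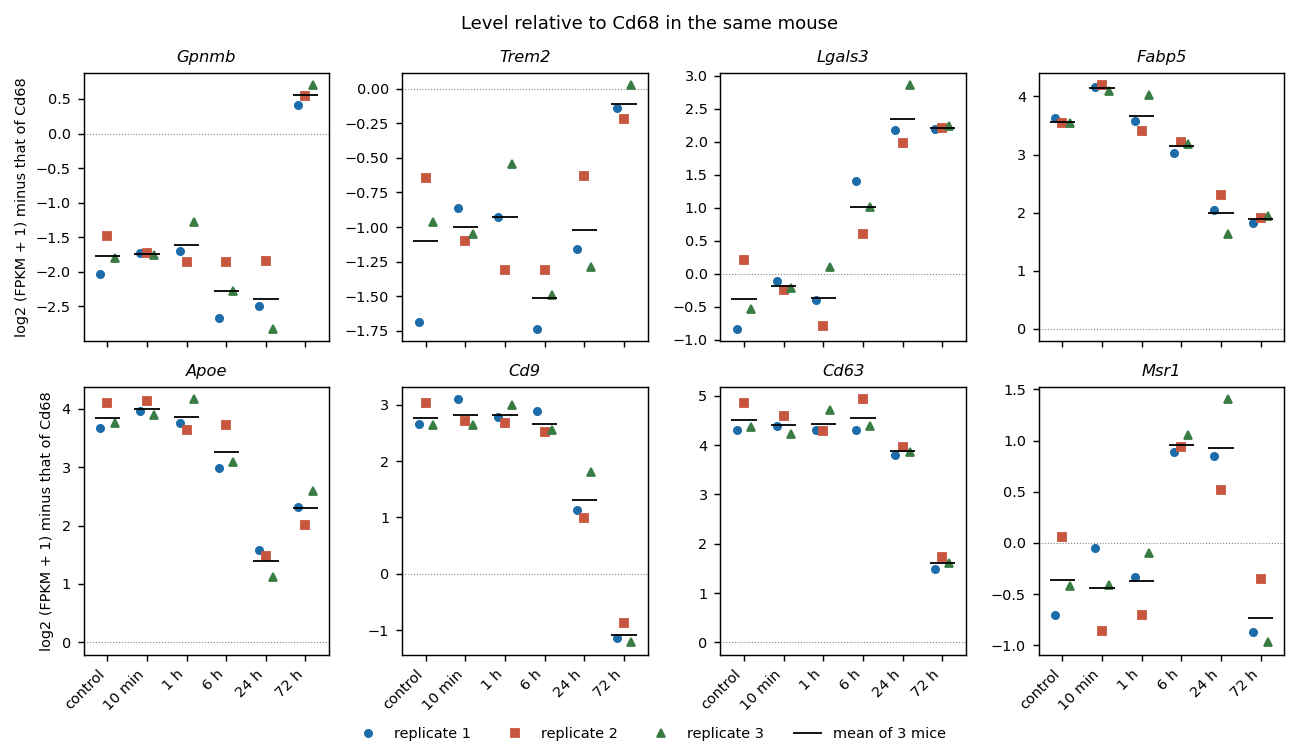
Log2(FPKM + 1) of 8 genes minus that of Cd68 in the same mouse, for 18 mice in 6 groups, with a symbol for each mouse and a bar at the mean of 3; each panel has its own scale. Lgals3 and Msr1 are above control at 6 h and 24 h, Gpnmb and Trem2 are above control at 72 h, and Fabp5, Apoe, Cd9 and Cd63 are below control at 24 h and 72 h.

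The profiles of the 9 genes were compared over the 18 mice after scaling log2(FPKM + 1) of each gene from 0 in its lowest to 1 in its highest mouse. The 72 h mice, whose values chose the set, are part of these profiles. The most alike members were Trem2 and Cd68, with a root mean square difference of 0.0624, then Cd63 and Msr1 with 0.0739, Lgals3 and Cd63 with 0.0803, and Gpnmb and Trem2 with 0.0846. The least alike were Apoe and Msr1, with 0.342. Of 4431 other genes with a clear range, those nearest to Gpnmb were Cd180, Ctsb, Wbp5, Ncapg2 and Tpx2, at 0.0318 to 0.0387, and those nearest to Trem2 were Clec4a1, Rab7b, Abcc3, Rap2b and Epsti1, at 0.0390 to 0.0451. The nearest gene was Fcer1g for Lgals3, Psap for Apoe and Lgmn for Cd68. Ctsb, which encodes the lysosomal protease cathepsin B, had 225 ± 7.93 FPKM in control mice, 331 ± 13.2 at 24 h and 1819 ± 187 at 72 h (SD, n = 3).

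Among 14 partners and signalling genes of the TREM2 receptor, 4 were called higher at 6 h and 10 at 24 h, and none lower, beside 11.6% and 26.2% of all genes called higher and 16.8% and 11.4% called lower, which is the background to each list below. The median log2 fold change of the 14 was 0.31 and 0.82. Tyrobp, the adaptor without which TREM2 does not signal, had 4.53 ± 0.727 FPKM in control mice and 28.3 ± 16.2 at 24 h (log2 fold change 2.28, limma adjusted p = 0.00592), and 99.6 ± 14.5 at 72 h. At 6 h Tyrobp had a log2 fold change of 1.00 (limma adjusted p = 0.0658). Vav1, an exchange factor downstream of such receptors, had 0.76 at 6 h (limma adjusted p = 0.0204) and 1.81 at 24 h (limma adjusted p = 0.00756). Blnk, an adaptor protein, had a log2 fold change of -0.11 at 24 h (limma adjusted p = 0.675) and 3.14 at 72 h.

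Of 20 tested genes of lipid uptake, storage and efflux, 5 were called higher and 2 lower at 6 h, and 10 higher and 2 lower at 24 h, beside 11.6% and 16.8% of all genes at 6 h and 26.2% and 11.4% at 24 h. Soat1, which makes cholesterol esters for storage, had a log2 fold change of 1.45 at 24 h (limma adjusted p = 0.0122), and Abcg1, a cholesterol exporter, had 1.13 (limma adjusted p = 0.00707). Lpl, the lipoprotein lipase that is abundant in heart muscle, had 367 ± 15.1 FPKM in control mice and 121 ± 8.74 at 72 h, below control where Fabp5 and Apoe were above it. The 4 adipocyte markers summed to at most 0.278 FPKM in any mouse.

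Of 12 tested scavenger receptors, the class to which Msr1 belongs, 3 were called higher and 3 lower at 6 h and 3 higher and 1 lower at 24 h. The shares over all genes were 11.6% and 16.8% at 6 h and 26.2% and 11.4% at 24 h. The list's median log2 fold change was 0.02 and 0.37, with 1.93 and 3.38 for Msr1. Mrc1, the mannose receptor, was higher at both times (0.72 and 0.94, limma adjusted p = 0.0233 and 0.00659), and Scara5, a ferritin receptor, was lower at both (-0.59 and -1.50, limma adjusted p = 0.0238 and 0.0119). Of 11 other tetraspanins, 3 were higher and 1 lower at 6 h and 6 higher at 24 h, led by the leukocyte tetraspanin Cd53 with 1.75 and 2.43 (limma adjusted p = 0.0245 and 0.00781).

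Of 7 tested galectins and galectin-3 partners 1 was called higher at 6 h and 1 at 24 h, and 1 was called lower at 24 h, where the share over all genes was 26.2% higher and 11.4% lower. Lgals1, encoding galectin-1, had a log2 fold change of -0.23 at 6 h (limma adjusted p = 0.0617) and 0.79 at 24 h (limma adjusted p = 0.0055). Of 5 tested genes of lysosomal membrane proteins, 0 were called at 6 h, with Lamp1 at -0.10 (limma adjusted p = 0.29), and Lamp2 was the 1 called at 24 h (0.35, limma adjusted p = 0.0393). Cd63 and Cd68, which are also proteins of that membrane, had 1.47 and 2.103 at 24 h.

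The MITF and TFE factors are known to bind genes of lysosomes, Gpnmb among them. Tfec and Tfe3 were called higher at 6 h (1.42 and 0.34, limma adjusted p = 0.0061 and 0.034) and at 24 h (2.77 and 0.72, limma adjusted p = 0.02 and 0.035). Mitf had a log2 fold change of -0.25 at 24 h (limma adjusted p = 0.0861) and -0.50 at 72 h, and Tfeb 0.07 (limma adjusted p = 0.525) and -0.41. The 3 tested partners of GPNMB, Cd44, Sdc4 and Itgb1, were all called higher at 6 h and 24 h, with 2.02, 1.95 and 0.43 at 6 h.

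Of 14 further genes known from TREM2-type macrophages, 6 were called higher at 6 h and 10 at 24 h, with none lower and a median of 0.19 and 1.25. Spp1, encoding osteopontin, had 0.0351 FPKM on average in control mice and 55.2 at 24 h (log2 fold change 5.63, limma adjusted p = 0.000519), and 312 at 72 h. Hmox1, encoding the heme-degrading enzyme, was higher from 6 h (3.89, limma adjusted p = 5.41e-05). Lyz2, lysozyme of myeloid cells, was at -0.01 at 6 h (limma adjusted p = 0.969) and 1.57 at 24 h (limma adjusted p = 0.00146).

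At 72 h the fibroblast markers were high as well, with a sum of 2802 to 3527 FPKM against 202 to 222 in control mice, and Col1a1 was among the 2 genes nearest in profile to Fabp5. The part of other cell types in the 72 h levels of the 9 genes was not tested.

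**Figure D4:**
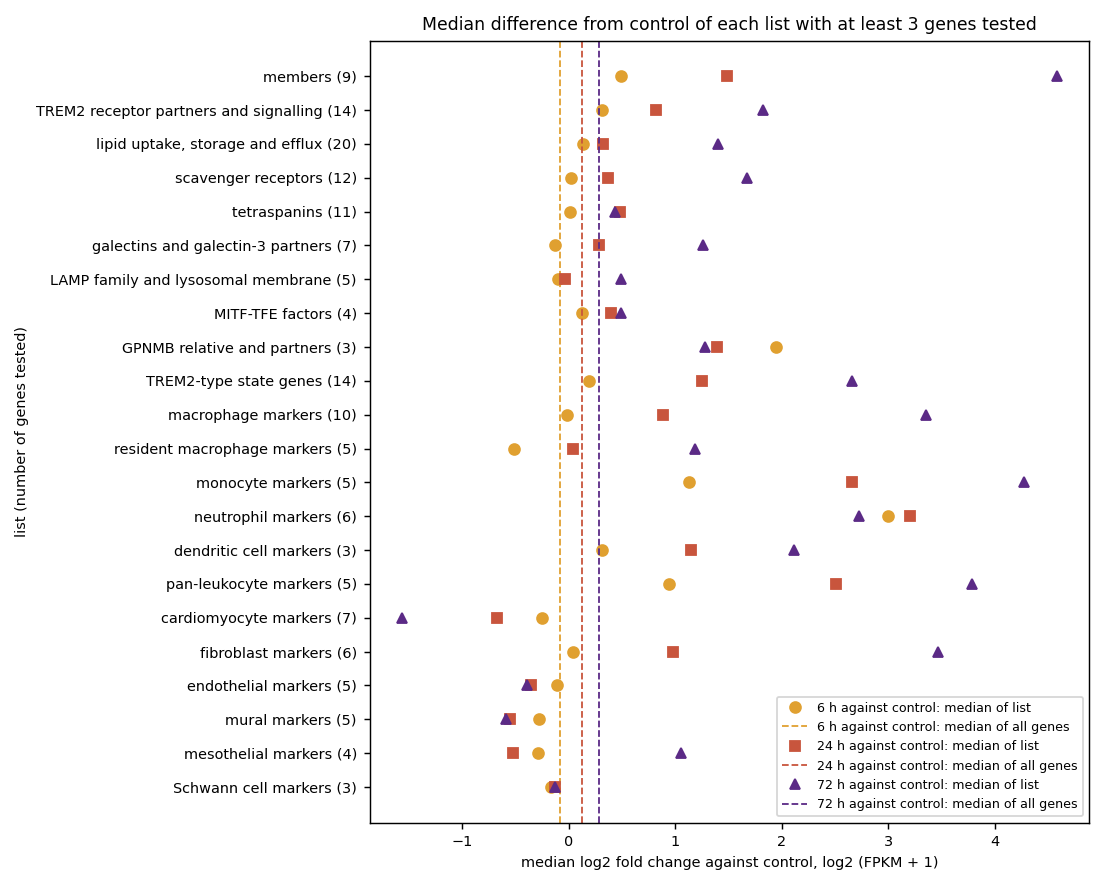
Median log2 fold change against control, on the log2(FPKM + 1) scale, of the 9 genes (top line, named members) and of each other list with at least 3 genes tested, at 6 h (circles), 24 h (squares) and 72 h (triangles), with the median of all genes as dashed lines. The 9 genes have medians of 0.49, 1.48 and 4.58, and the neutrophil markers are the list with the highest median at 6 h, 2.999.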

How the data were processed

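Poly(A) libraries of 18 mice were sequenced as paired-end reads. Before deposit, the authors removed adaptors (cutadapt 1.18), aligned to mm10 (HISAT2 2.1.0) and estimated FPKM (StringTie 1.3.4d), deposited as 1 value per symbol and mouse. The annotation used is not given in the sources used here, and no read counts were used, so the precision comes from the spread of 3 mice. Groups came from sample titles, and 4 column names with a typing error were matched to the only titles they resemble.

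The 9 genes and all lists were chosen with earlier results of these data known. Values were taken as log2(FPKM + 1) for genes with at least 1 FPKM in at least 1 mouse. Each comparison was fitted on its own 6 mice with limma 3.58.1 in R 4.3.3 (lmFit, eBayes with a variance trend), as a two-sided test whose p-values were adjusted (Benjamini-Hochberg) across every gene fitted. Data of 13333 genes were also simulated as 3 against 3, with the mean and spread of the control mice. There, 95 of 100 genes with a log2 change of 1 and 99 of 100 with a change of 2 were called. In addition, 10 unchanged genes were called. The changed genes were drawn from those with a control mean above 2 on the log2(FPKM + 1) scale. Gpnmb (0.92) and Trem2 (1.59) lay below that level. Recovery at such lower levels, or at the spread of the 6 h or 24 h mice, was not tested. Ratios to Cd68 were tested by exact permutation in Python 3.11.15 with scipy 1.17.1. The genes named were the 9, the 3 largest and the 1 smallest log2 fold change at 72 h of each list, of which a selection is printed, and the genes nearest in profile. Marker lists gave sums of FPKM. Alternatives were another pseudocount (0.1), other filters, scalings and fits, and leaving out each mouse.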

Additional observations from a re-analysis of the deposited data

Results flagged for a closer look

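Apoe moved in opposite directions against control at different times. Its mean was 0.784 times the control mean at 24 h, with all 3 mice below all control mice, and 11.0 times at 72 h, with all 3 mice above. The difference between the times was not tested, since 72 h values chose the set.

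Cd63 was 0.892 times the control mean at 10 min, with all mice below control, and 1.58 times at 6 h, 2.81 times at 24 h and 4.20 times at 72 h, with all mice above. The 10 min difference was not called (limma adjusted p = 0.304), and the difference between 10 min and the later times was not tested.

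The difference from control was larger at 24 h than at 6 h by a direct test of the times for 6 genes. It was larger by 2.82 on the log2 scale for Lgals3, 1.98 for Trem2, 1.49 for Cd68, 1.45 for Msr1, 1.37 for Gpnmb and 0.82 for Cd63, and without 6 h mouse 2 or 3 none of the 6 was called, when 1 of all genes was called higher in place of 1664. The log2 differences were then 2.45 and 2.81 for Lgals3 and 1.92 and 1.97 for Trem2.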

How the results depend on the processing

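The settings tried were another pseudocount, 2 other filters, 3 scalings, 1 fit over all 18 mice, a replicate block, no variance trend and each mouse left out. Of the log2 fold changes of the 9 genes, 615 recomputed values kept their direction and side of the threshold, 41 lost and 9 gained a call, 35 values in comparisons with 72 h moved by more than the spread, and 5 turned sign, all from values that were not called. Cd9 between 6 h and 24 h was -0.090 with median-of-ratios scaling and ranged from -0.23 to 0.45 as mice were left out, Trem2 at 6 h from -0.013 to 0.34, and Apoe at 6 h from -0.027 to 0.14. The cause was not tested.

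Members called lower at 24 h were 0 with all 18 mice in 1 fit, and 0 to 1 as mice were left out, when all genes called lower ranged from 366 to 1796. Members called higher between 6 h and 24 h ranged from 0 to 6 as mice were left out, and all genes called higher from 1 to 1745, and 1 was called lower with median-of-ratios scaling and 1 with all 18 mice in 1 fit, which was Apoe. Members called higher at 6 h ranged from 3 to 5 as mice were left out, and all genes called higher from 763 to 1786. For the other lists together, 7 genes were called lower at 24 h with median-of-ratios scaling and 8 with all 18 mice, against 4. With that scaling 2426 of all genes were called lower, against 1516. Leaving out mice gave 1 to 7 lower and 24 to 49 higher at 24 h, and 2 to 7 lower and 14 to 29 higher at 6 h. Of all genes, 1262 to 4043 were then called higher at 24 h, and 852 to 2894 lower at 6 h.

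Same-numbered mice were not paired: the correlations of their deviations ranged from -0.0067 to 0.078 between control and 24 h and from -0.33 to 0.41 between 6 h and 24 h, where 1 mouse correlated best with its own number. With the replicate block, 0 members were called between 6 h and 24 h. Gpnmb, Trem2, Lgals3 and Cd68 then shared a limma adjusted p of 0.0682, with the same log2 fold changes as before. The count over all genes under that fit is not given here, so nothing is read from the 0 about the members. Under the block Cd68 gained a call at 6 h and Fabp5 lost one at 24 h.

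Relative to another gene than Cd68, members above control at 6 h were 8 with Adgre1 and 8 with Csf1r, and 0 were below with either. Of all genes, 30.5% and 52.3% were above control with these genes, and 3.69% and 1.98% were below. With Ptprc 2 members were above and 1 was below at 6 h, beside 2.8% and 70.9% of all genes. At 24 h 5 members were above with Adgre1, 5 with Csf1r and 4 with Ptprc, and 1 was below with each. The shares of all genes were 4.94%, 5.9% and 1.96% above, and 71.0%, 68.8% and 89.3% below. At 72 h 4 members were above with Adgre1, 6 with Csf1r and 6 with Ptprc, and 2 were below with each. All genes were then above in 0.795%, 2.21% and 1.57%, and below in 98.0%, 94.9% and 94.7%.

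With median-of-ratios scaling the all-gene median log2 difference went from 0.13 to 0.01 at 24 h and from 0.29 to 0.03 at 72 h, and quantile normalization moved it to -0.06 and -0.12.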
